A study of Gallus gallus with 8 samples.

Results

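Chicken keratinocytes differentiated in skin equivalents, layered cultures in 3 dimensions, were compared with chicken keratinocytes grown to a confluent monolayer. All 3 skin equivalent libraries and all 3 confluent monolayer libraries entered the comparison, 6 of the 8 RNA libraries in the series, and every counted feature was used. The other 2 libraries, 1 of subconfluent keratinocytes and 1 of confluent fibroblasts, serve only as points of reference. All cultures were of primary chicken cells, and the labels call the cells of both compared groups primary keratinocytes. Titles mark the monolayers with the number 8 after the letter d and skin equivalent 1 with 7, whereas skin equivalents 2 and 3 carry no such number. Replicates 1, 2 and 3 of both groups bear the codes 20, 34 and 56, and replicates 2 and 3 of both groups also bear the letters wo. The subconfluent library bears the code 20 as well. The sources used here give no breed, no age and no meaning for these codes. Nor do they say whether replicates are separate birds, or separate cultures of one; a p-value therefore reflects library-to-library spread that could be technical. The labels do not say whether the RNA of a skin equivalent included cells of a dermal layer.

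Keratinocytes of the basal layer divide, and as they move up they stop dividing, fill with keratin filaments and turn into the dead, flat cells of the cornified layer. Keratin filaments are built from pairs of a type I and a type II keratin, and the pairs change as a cell differentiates. The epidermal differentiation complex (EDC) is a gene cluster whose proteins build the cornified layer. In birds and reptiles this cluster also holds the genes of corneous beta-proteins (CBP), the structural proteins of scales, claws, beaks and feathers. Avian CBPs are commonly classed as claw, feather, keratinocyte and scale types, and the deposited names end in -C, -F, -K and -S, which the files do not spell out.

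The 6 libraries held 27329706 to 30533216 gene counts. A level is given below as CPM, counts per 1000000 gene counts of the library, and 3 counts correspond to 0.0983 to 0.11 CPM in these libraries. CPM was not divided by transcript length, so an order of features by CPM is an order of counts and not of molecules. Of 24902 features, 24759 carry an ENSGALG identifier without a name and 143 have names that the authors gave them: keratins, EDC features, CBPs and a few others. In the reference gene table at hand, 0 of 25635 genes have an Ensembl identifier. Unnamed features are therefore described by their values, and identifiers are given for the 2 with the largest gain and the 2 with the largest loss. Krt15, a keratin of basal keratinocytes and the 1 keratinocyte marker of 10 that matched a deposited name, had 1905, 2676 and 2431 CPM in monolayers 1 to 3 and 2458, 3210.2 and 2601 CPM in skin equivalents 1 to 3, against 0.0348 CPM, a single count, in the fibroblast library.

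One monolayer stood apart from the others of its group. The distance between 2 libraries was taken as the share of gene counts that would have to be moved between features to turn one library into the other. Monolayers 2 and 3 differed by 5.27% of counts, but monolayer 1 differed from them by 19.2% and 18.3%. Monolayer 1 is also the only monolayer whose title lacks the letters wo, so the library and the mark cannot be told apart. The skin equivalents differed from each other by 12.8% to 16.6%. Counting error alone gives 0.797% to 0.844% for pairs within a group, so no pair looked like 1 library deposited under both names. Of 13230 features with enough counts to be tested, 2589 (19.6%) lay over 2-fold from the mean of the other monolayers in monolayer 1, against 582 (4.4%) in monolayer 3, on a log2(CPM + 0.1) scale.

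Monolayer 1 and the skin equivalents also held more RNA of features typical of the fibroblast library. As a measure that uses no compared library, 112 features had at least 100 CPM in the fibroblast library and at least 50-fold less in subconfluent keratinocytes, a rule set after the data had been seen. Their summed level was 195163 CPM in fibroblasts and 556.5 CPM in subconfluent keratinocytes. It was 5965, 1512 and 2056 CPM in monolayers 1 to 3, or 3.06%, 0.775% and 1.05% of the fibroblast level. In skin equivalents 1 to 3 it was 6242, 12347 and 6276 CPM, or 3.20%, 6.33% and 3.22%. The lowest skin equivalent was thus just above monolayer 1 (two-sided exact permutation p = 0.1, the smallest that 3 against 3 libraries allow). Of the 110 tested among these 112 features, 30 rose and 14 fell in skin equivalents, beside 25.9% and 23.6% of all tested features. The share that rose was near that of all features, and the share that fell was lower. The part of these features in the results below was not tested. In bulk RNA, fewer cells of a type and less RNA per cell cannot be told apart.

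**Figure D1:**
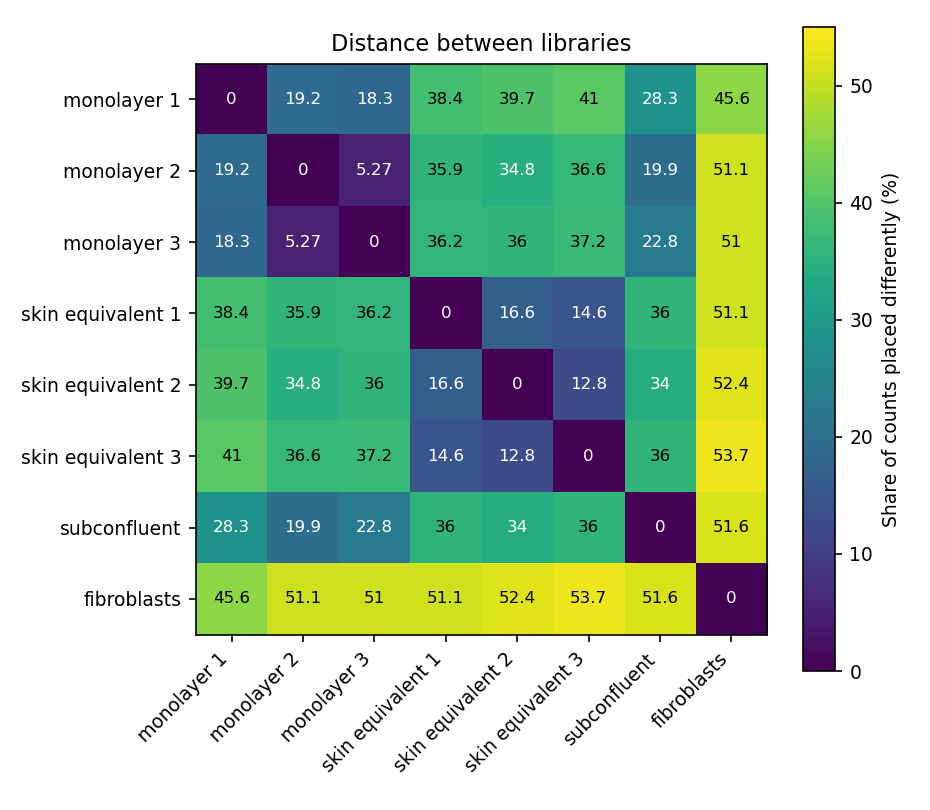
Distance between each pair of the 8 libraries, as the share of gene counts (%) placed on different features, from 0 (same shares) upward. The 9 pairs of a monolayer and a skin equivalent lie between 34.8% and 41%, above every pair within a group (5.27% to 19.2%).

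The first question was how far the counts were redistributed between culture types. A skin equivalent and a monolayer differed by 34.8% to 41% of counts over the 9 pairs, with a mean of 37.3% ± 2.02 (SD over pairs, which share libraries). Every one of these pairs was farther apart than any pair within a group. Without the 143 named features, and with shares recomputed over the unnamed ones, the pairs still differed by 29.4% to 35.3%. Subconfluent keratinocytes were 19.9% to 28.3% from the monolayers and 34% to 36% from the skin equivalents. In the heat map of distances the subconfluent library lies nearer to each monolayer than to any skin equivalent.

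Counts in skin equivalents were concentrated in fewer features. The 10 features with the most counts held 12.4%, 14.7% and 16.5% of counts in skin equivalents 1 to 3 (mean 14.6% ± 2.06, SD, n = 3) and 6.73%, 7.18% and 7.33% in monolayers 1 to 3 (7.08% ± 0.312). The groups did not overlap, and the two-sided exact permutation test gave its smallest p of 0.1. For the top 100 features the shares were 32.5%, 34.8% and 35.3% in skin equivalents and 24.7%, 24.7% and 24.6% in monolayers. Reaching 50% of counts took 365, 345 and 351 features in skin equivalents and 501, 614 and 608 in monolayers, again without overlap (exact permutation p = 0.1). The number of features at 1 CPM or more moved little, from 11679 ± 86.9 in monolayers to 11369 ± 155 in skin equivalents (exact permutation p = 0.1). With named features left out and CPM recomputed, it was 11665 ± 60.0 and 11468 ± 187, and the groups overlapped (exact permutation p = 0.3).

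Most of this concentration lay in the named features. They took up 12.7%, 16.3% and 16.1% of counts in skin equivalents 1 to 3 and 1.68%, 2.41% and 2.10% in monolayers 1 to 3. With named features left out, the 10 features with the most counts held 8.04% ± 0.825 in skin equivalents and 7.23% ± 0.337 in monolayers, and the groups overlapped (exact permutation p = 0.3). The numbers of unnamed features that reached 50% of unnamed counts also overlapped, at 513, 550 and 581 against 513, 643 and 632 (exact permutation p = 0.4). For the top 100 unnamed features a small difference without overlap was left, of 25.9% ± 0.243 against 24.2% ± 0.347 (exact permutation p = 0.1).

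**Figure D2:**
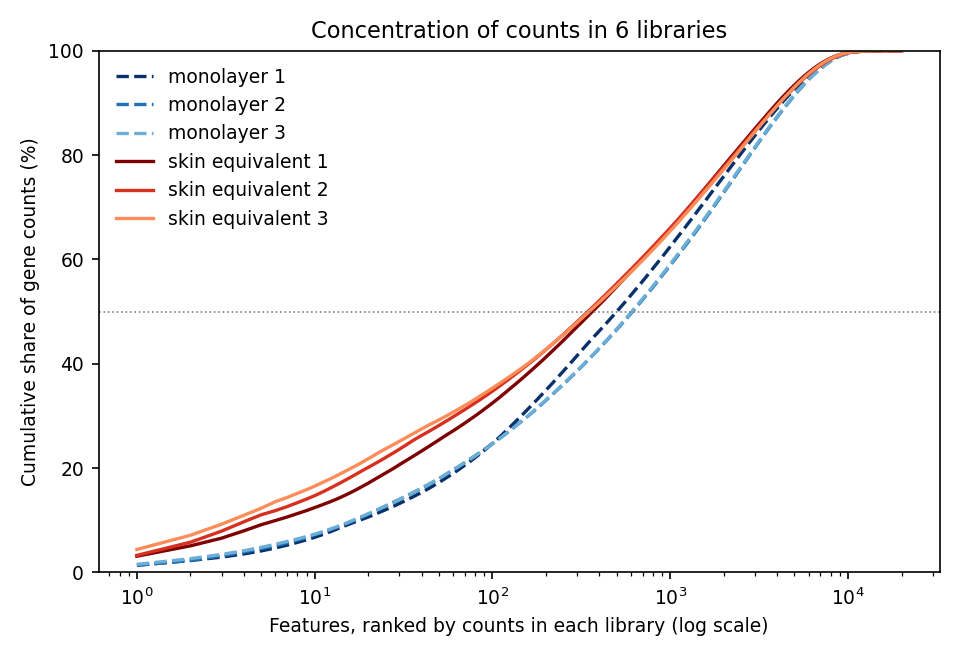
Cumulative share of gene counts (%) against the number of features, ranked within each library by counts (log scale), for 3 monolayers (dashed) and 3 skin equivalents (solid). The dotted line marks 50% of counts, which skin equivalents reach with 345 to 365 features and monolayers with 501 to 614.

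Gains and losses were unequally spread. Between the group means, 35.4% of counts changed place, and since shares sum to 100% the gains and the losses are equal in size. It took 36 features to make up 50% of the gain and 247 to make up 50% of the loss. Over the 9 single pairs of libraries these numbers were 24 to 62 and 207 to 277, so the gain was the more concentrated side in every pair. Named features made up 39.8% of the gain, with Krt9L at 13.5%, Krt78L at 12.3%, -K CBPs at 5.27%, Krt5L at 3.39% and -EDC features at 3.38%. Unnamed features made up 60.2% of the gain, which is 21.3 percentage points of all counts, and 96.8% of the loss. Counted within the unnamed features, 151 of them made up 50% of their gain and 266 made up 50% of their loss.

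**Figure D3:**
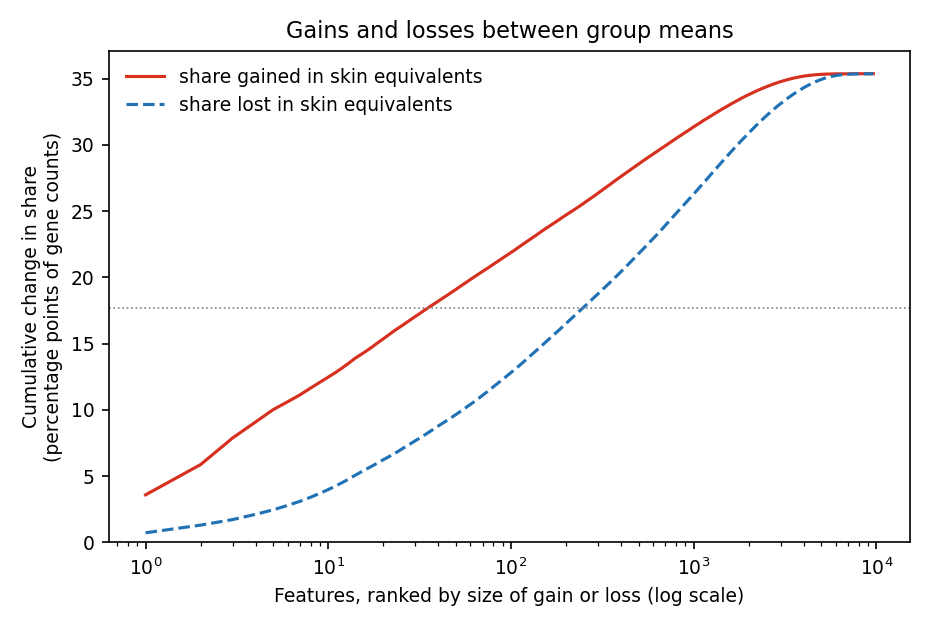
Cumulative change in share (percentage points of gene counts) against features ranked by the size of their gain (solid) or loss (dashed) between group means, on a log scale. Both curves end at 35.4 points, and the dotted line at 50% of this total is crossed after 36 features for gains and 247 for losses.

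The lists of features with the most counts were rewritten at the top. Of the 100 features with the highest mean CPM in each group, 55 were in both lists, whereas pairs of libraries within a group shared 69 to 92 and pairs across groups 43 to 58. In the skin equivalent list 17 features carry a name, against 7 in the monolayer list. A rank beyond 1000 in monolayers was held by 16 of the top 100 of skin equivalents, 4 of them unnamed. In the other direction, 9 of the top 100 of monolayers ranked beyond 1000 in skin equivalents, 7 of them unnamed. Over all tested features, 25.9% were called as higher and 23.6% as lower in skin equivalents, by the edgeR quasi-likelihood test at an adjusted p under 0.05. Of the skin equivalent list 48 features were called higher and 4 lower, and of the monolayer list 38 were called lower and 14 higher; each list was picked on its own group's level, so these directions are a description.

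The 10 features with the most counts in skin equivalents include Krt9L3, Krt78L3, Krt78L2, Krt5L1 and CBP63-K, and the other 5 are unnamed. In monolayers 9 of the top 10 are unnamed and Krt5L2 is the tenth. The lists share 3 unnamed features, of which none was called. The first of them led the monolayers, with 13842, 13721 and 15484 CPM, and had rank 4 in skin equivalents, with 14762, 13371 and 17018 CPM (log2 fold change 0.34 ± 0.26, edgeR adjusted p = 0.319). Its libraries overlapped between the groups.

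A pair of unnamed features gave the largest unnamed gains. ENSGALG00000005956 had 1565, 1225 and 1187 CPM in monolayers 1 to 3 and 4433, 6458 and 8109.5 CPM in skin equivalents 1 to 3. ENSGALG00000029500 had 866, 2091 and 1736 CPM in monolayers and 4747, 6564 and 6794 CPM in skin equivalents. For both, each skin equivalent was above each monolayer. By CPM, 25.3% of tested features had all skin equivalents above all monolayers and 36.5% had all of them below. Their log2 fold changes were 2.51 ± 0.32 (edgeR adjusted p = 0.00103) and 2.23 ± 0.37 (0.00256). Fold changes come from a fit with TMM scaling, which rescales libraries for differences in composition, so here they run slightly above ratios of CPM.

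The largest unnamed losses were deeper. ENSGALG00000043092 had 4886, 9194 and 10871 CPM in monolayers 1 to 3 and 1313, 997 and 783 CPM in skin equivalents 1 to 3 (log2 fold change -2.72 ± 0.38, edgeR adjusted p = 0.00145). ENSGALG00000009626 fell from 4832, 6767 and 6357 CPM to 55.5, 448.5 and 145 CPM (log2 fold change -4.52 ± 0.77, adjusted p = 0.00298). Skin equivalent 2 kept the most of it, and without that library the log2 fold change was -5.63. The fibroblast library held 708 CPM of the first and 4284 CPM of the second feature, so neither was limited to the keratinocyte libraries.

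Transcriptome-wide, 49.5% of tested features were called, 3427 of 13230 as higher and 3122 as lower in skin equivalents. With scaling by total count in place of TMM the split was 2517 higher and 3918 lower, and the median log2 fold change of all tested features moved from 0.08 to -0.18. Without monolayer 1 the fit called 3301 features higher and 3610 lower, and without skin equivalent 2 it called 3097 and 2890. Large folds leaned towards losses among unnamed features, though over 2-fold 2597 rose and 2586 fell. Over 4-fold, 1004 unnamed features rose and 1513 fell. Over 16-fold the numbers were 243 and 489, and over 256-fold they were 30 and 48. Named features had the opposite lean, with 70 rises and 5 falls over 16-fold and 52 rises and 2 falls over 256-fold. Of the 79 named features called higher at any fold, 52 had under 10 counts in at least 1 monolayer. A feature that passed the filter through 1 group alone could only move towards that group, so the filter sets part of both leans.

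Unnamed features changed at every level of expression. Of 13128 tested unnamed features, 25.5% were called higher and 23.7% lower. At a mean log2 CPM of 3 to 6, 1688 of 5952 rose (28.4%) and 1424 fell (23.9%). Among the 255 unnamed features above a mean log2 CPM of 9, 52 rose (20.4%) and 54 fell (21.2%). Fold changes were spread more widely at low levels: the central 80% of log2 fold changes ran from -3.23 to 2.22 at a mean log2 CPM of 0 to 3, from -1.49 to 1.47 at 6 to 9 and from -1.63 to 1.49 above 9. The medians stayed between 0.04 and 0.17 in all 5 level classes.

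**Figure D4:**
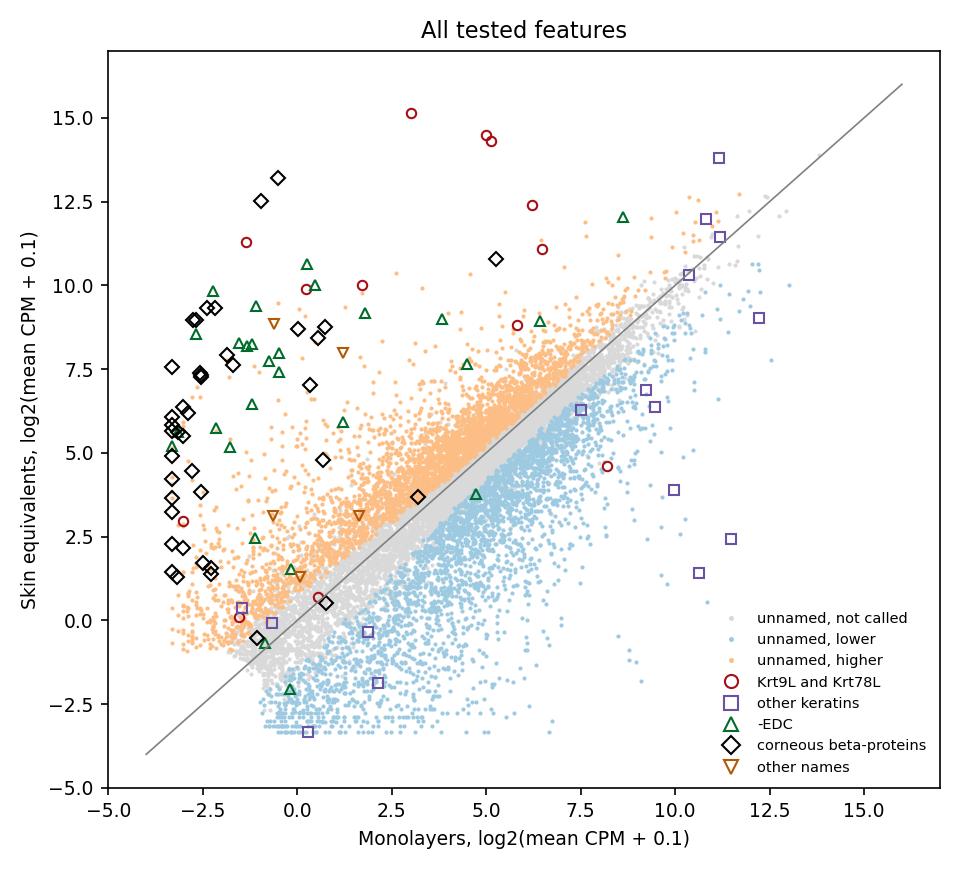
Mean level of each of the 13230 tested features in 3 monolayers (x axis) and 3 skin equivalents (y axis), both as log2(mean CPM + 0.1), with unnamed features as dots coloured by call and named features as open symbols by family. Corneous beta-proteins, -EDC features and the Krt9L and Krt78L keratins lie mostly far above the diagonal line of equal levels, and several other keratins lie far below it.

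Strictly on or off features were few. Just 13 features had 0 counts in every monolayer and at least 1 CPM in every skin equivalent, and 8 of them are named: 5 CBPs ending in -C, CBP65-K, CBP50L-S and EDYM1-EDC. CBP65-K had 74.5, 245 and 248 CPM in skin equivalents 1 to 3. Its mean of 189.3 CPM was at least 1859-fold above the floor of 3 counts per monolayer library. EDYM1-EDC had 26.3, 68.1 and 16.9 CPM, with a mean of 37.11 CPM that was at least 364-fold above that floor. The 5 unnamed on features reached mean levels of 12.5 to 35.2 CPM. In the fibroblast library 12 of the 13 had 0 counts, and none of the 13 reached 1 CPM in subconfluent keratinocytes. With up to 3 counts allowed in each monolayer the number of on features was 39.

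The reverse pattern was seen in 16 features, all of them unnamed, with 0 counts in every skin equivalent and at least 1 CPM in every monolayer. Their mean monolayer levels ran from 1.31 to 101 CPM with a median of 5.23. The highest had 46.0, 88.7 and 169 CPM in monolayers 1 to 3. Its mean of 101 CPM was at least 944-fold above the floor of the skin equivalents. All 16 had counts in subconfluent keratinocytes, 6 of them at 1 CPM or more, and 10 had 0 counts in fibroblasts. Without skin equivalent 2 the number of off features was 26, and with up to 3 counts allowed in each skin equivalent it was 87.

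Losses short of zero reached far more abundant features. One unnamed feature had 1668, 1887 and 1946 CPM in the monolayers and 1.29, 1.43 and 1.37 CPM in the skin equivalents (log2 fold change -10.12 ± 0.29, edgeR adjusted p = 1.84e-05). Its level in subconfluent keratinocytes was 1364 CPM and in fibroblasts 0.0348 CPM. Another had 566, 423 and 495 CPM in monolayers against 0.382, 0.293 and 0.288 CPM. For both, the monolayers varied little beside the gap between the groups.

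A threshold of 1 CPM, in place of 0 counts, also separated more features on the monolayer side. At 1 CPM in every skin equivalent and under 1 CPM in every monolayer stood 264 features, 39 of them named. At 1 CPM in every monolayer and under it in every skin equivalent stood 542, of which 2 are named. CPM is not corrected for composition. Named features took more of the counts in skin equivalents, which lowers the CPM of all other features there. By the edgeR test with TMM scaling, 261 of the 264 and 513 of the 542 were called. Both sets were picked by their levels in the same 6 libraries, so these calls are a description. The features on each side of 1 CPM were not recounted with TMM scaling, so the part of composition in this difference was not tested. Of the monolayer group 388 were at 1 CPM or more in subconfluent keratinocytes and 268 in fibroblasts. Of the skin equivalent group 56 and 97 were. In all 6 libraries 10192 features reached 1 CPM, and 4804 of these were called as different, a share near the 49.5% of all tested features.

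**Figure D5:**
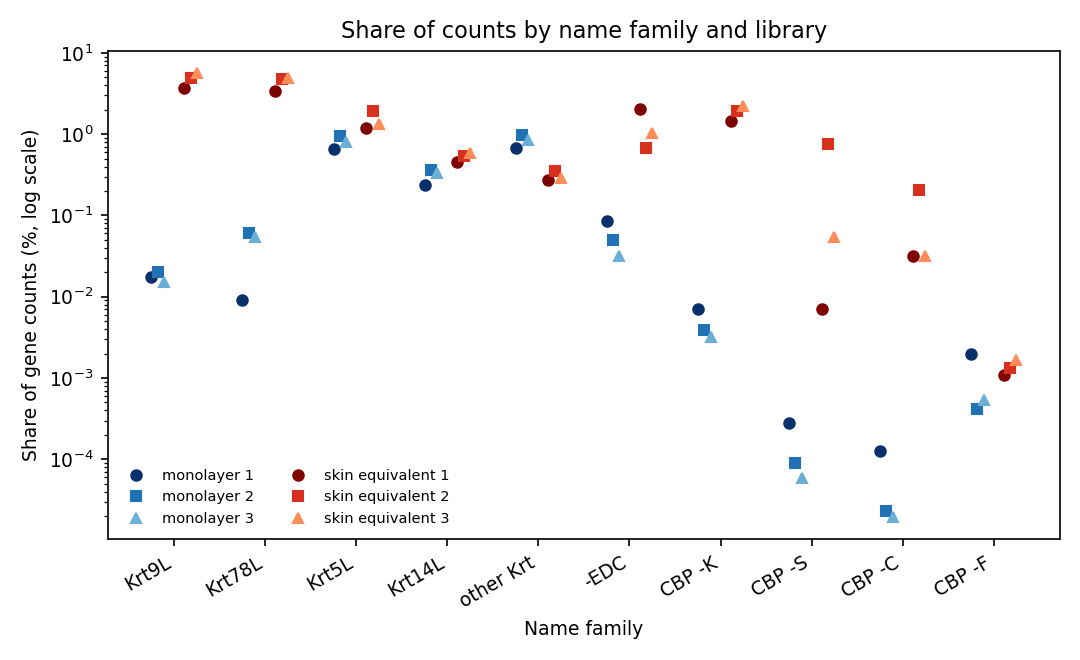
Share of gene counts (%, log scale) of 10 name families in each of 3 monolayers and 3 skin equivalents, 1 point per library. Krt9L, Krt78L, Krt5L, Krt14L, -EDC and the -K, -S and -C CBPs are higher in every skin equivalent. The summed share of the keratins outside these families (other Krt) is lower in every skin equivalent, and -F CBPs overlap. Skin equivalent 2 stands out for -S and -C, and skin equivalent 1 for -EDC.

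Among 102 tested named features the calls were 79 higher, 11 lower and 12 neither, and the other 41 had too few counts. Of the 79, 52 had under 10 counts in at least 1 monolayer, and features that passed the filter through the skin equivalents alone could only rise. Keratins show both directions. Of 29 tested keratins 13 rose and 10 fell, beside 25.9% and 23.6% of all tested features. Krt12, among the 13, overlapped between the groups, at 0.394, 0.1996 and 0.1965 CPM in monolayers and 0.243, 1.17 and 2.12 CPM in skin equivalents. Its log2 fold change of 2.39 ± 0.79 (edgeR adjusted p = 0.0399) was 1.67 without skin equivalent 3 (adjusted p = 0.142). Krt12 also lost its call without skin equivalent 2 or any single monolayer, with total-count scaling and with limma-voom. Keratin genes of one type are alike in sequence, and fragments mapping to several places were counted to no gene, so the level of each single keratin is uncertain, as it is for the CBPs.

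The Krt9L names, after a type I keratin, took the most counts. Krt9L3 had 2.65, 11.8 and 9.24 CPM in monolayers 1 to 3 and 31129, 32688 and 44003 CPM in skin equivalents 1 to 3. It moved from rank 8850 in monolayers to rank 1 in skin equivalents. Its subconfluent level was 7.92 CPM, within the range of the monolayers. All 7 Krt9L features rose, beside 25.9% of all tested features, with a median log2 fold change of 8.61, against 0.08 over all tested features. Among them, Krt9L4 and Krt9LC3 had under 10 counts in at least 1 monolayer. Krt9LC1, like Krt9L1, was present in monolayers at a moderate level, with 99.7, 56.7 and 65.0 CPM in monolayers and 2370.3, 7851 and 5852 CPM in skin equivalents. Krt9LC2 varied most among the skin equivalents, at 76.6, 1918 and 853.9 CPM, and its log2 fold change of 10.05 ± 1.39 (edgeR adjusted p = 0.00134) was 9.02 without skin equivalent 2 and 10.71 without monolayer 3.

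Krt78L names, after a type II keratin, followed with 2 features near the top. Of 6 tested Krt78L features 3 rose, 1 fell and 2 were not called, beside 25.9% and 23.6% of all tested features that rose and fell. Krt78L3 had 7.19, 42.4 and 45.5 CPM in monolayers and 19864, 21402 and 27259 CPM in skin equivalents. Krt78L2 had 8.70, 42.9 and 53.5 CPM against 14049.7, 25233 and 21358 CPM. In both features monolayer 1 was the lowest of all libraries compared. Krt78L1 went the other way, from 56.01, 425 and 390.3 CPM to 23.3, 37.3 and 12.0 CPM (log2 fold change -3.28 ± 0.76, edgeR adjusted p = 0.0105, and -3.88 without monolayer 1). Its subconfluent level of 14.8 CPM was in the range of the skin equivalents. Krt78LC1 did not pass the filter but reached 86.1 CPM in skin equivalent 2, against 0.104 and 0.539 CPM in skin equivalents 1 and 3.

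Keratins named after those of the basal layer parted ways. Krt5L1 rose from 895, 3112 and 2877 CPM in monolayers to 11622, 17850 and 13341 CPM in skin equivalents. Krt5L2, the keratin with the most counts in monolayers at 4849, 4891 and 4462 CPM, had 300.0, 1174 and 85.9 CPM in skin equivalents. The log2 fold change of Krt5L2 was -2.92 ± 0.86 (edgeR adjusted p = 0.026). It was -4.33 without skin equivalent 2, and it lost its call when monolayer 1 (adjusted p = 0.0501) or skin equivalent 1 (0.0859) was left out and among the libraries marked wo (0.121). Krt5L3 had 785, 1422 and 785 CPM against 3.06, 38.4 and 2.27 CPM (log2 fold change -5.83 ± 1.2, and -8.26 without skin equivalent 2). All 3 were higher in subconfluent keratinocytes than in any monolayer, at 8412, 15491 and 4907 CPM. Krt14L1 rose from 1467, 1963 and 1980.3 CPM to 3623, 3764 and 4666 CPM (log2 fold change 1.43 ± 0.24, adjusted p = 0.003). Its subconfluent level was 4698 CPM, slightly above the highest skin equivalent. For Krt14L2 the groups overlapped, and its log2 fold change was 0.21 ± 0.31 (adjusted p = 0.6), or -0.06 when libraries were scaled by total count, -0.08 with monolayer 1 left out and near 0 with skin equivalent 2 left out. Krt15 did not pass the test (log2 fold change 0.51 ± 0.24, adjusted p = 0.119).

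Of 4 keratins known from simple epithelia, the single-layered linings of inner organs, Krt7, Krt19 and Krt18 fell and Krt8 was not called. Of all tested features, 23.6% were called lower. Krt7 had 2036, 3787 and 2676 CPM in monolayers and 5.28, 6.66 and 3.96 CPM in skin equivalents. Krt19 had 1187, 1859 and 1722 CPM against 2.01, 4.87 and 0.863 CPM. Their log2 fold changes were -8.78 ± 0.43 and -8.99 ± 0.76 (edgeR adjusted p = 4.14e-05 and 0.00021), and that of Krt19 was -9.81 without skin equivalent 2. Both were lower in subconfluent keratinocytes, at 1201 and 337 CPM, than in any monolayer. Krt18 was low throughout, with 3.11, 4.39 and 5.34 CPM against 0.417, 0.0366 and 0.0719 CPM, and its log2 fold change of -4.28 ± 0.79 (edgeR adjusted p = 0.00411) was -5.94 without skin equivalent 1. Krt8, known as the type II partner of Krt18, kept 85.0, 81.1 and 68.5 CPM in skin equivalents against 87.4, 266.5 and 191.8 CPM. Krt8 missed the threshold (log2 fold change -0.93 ± 0.36, adjusted p = 0.0674), but was called without monolayer 1 (-1.36, adjusted p = 0.00338), with scaling by total count (adjusted p = 0.0337) and with DESeq2 (adjusted p = 0.0235).

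Krt20, Krt23, Krt80 and Krt84L also fell. Krt20 had 5.05, 3.23 and 2.325 CPM in monolayers and 0.556, 0.622 and 0.863 CPM in skin equivalents (log2 fold change -2.12 ± 0.45). Krt23 had 722.5, 439 and 623 CPM in monolayers and 121, 97.0 and 135 CPM in skin equivalents (log2 fold change -2.08 ± 0.28). Krt80, a type II keratin, had 717, 624 and 793.5 CPM against 72.0, 92.4 and 80.4 CPM (log2 fold change -2.86 ± 0.22). Krt84L was low in monolayers, at 2.08, 0.798 and 0.491 CPM, and no skin equivalent held a count of it.

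Features of the EDC rose in 24 of 27 tested cases and fell in 1, beside 25.9% and 23.6% of all tested features. Their median log2 fold change was 8.37, against 0.08 over all tested features. Several of those that rose, LOR1-EDC and EDYM1-EDC among them, had under 10 counts in every monolayer. Features that passed the filter through the skin equivalents alone could only rise, so the filter sets part of these numbers. EDQCM-EDC, which rose, overlapped between the groups, with 14.6, 1.06 and 0.539 CPM in skin equivalents and up to 0.608 CPM in monolayers. Its log2 fold change of 4.19 ± 1.39 (edgeR adjusted p = 0.0402) was 1.4 without skin equivalent 1 (adjusted p = 0.193). It also lost its call when any single monolayer was left out. EDMTF4-EDC (2.03 ± 0.65, adjusted p = 0.0355) lost its call without monolayer 2 or 3, or without skin equivalent 1 or 2. Loricrin is a main protein of the cornified envelope, and LOR1-EDC had 0.107, 0.0998 and 0.131 CPM in monolayers and 857, 673.5 and 1201 CPM in skin equivalents. EDQL-EDC took the most counts of the family, with 707, 282 and 188 CPM in monolayers and 5799.5, 2005 and 4935 CPM in skin equivalents. Its log2 fold change of 3.67 ± 0.68 (edgeR adjusted p = 0.00406) was 4.37 without monolayer 1. EDKMb-EDC varied little within the monolayers, at 22.3, 21.2 and 23.9 CPM against 245, 149 and 209 CPM (log2 fold change 3.43 ± 0.25, adjusted p = 0.000117).

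Among the skin equivalents, skin equivalent 1 had the highest level of 21 of the 27 tested EDC features. It is also the only skin equivalent whose title lacks the letters wo and has a number after the letter d. The library and these marks cannot be told apart. The EDC family held 2.04%, 0.682% and 1.03% of counts in skin equivalents 1 to 3 and 0.0855%, 0.0492% and 0.0317% in monolayers 1 to 3. EDCH4-EDC had 3244, 762 and 795 CPM in skin equivalents and 1.32, 0.765 and 1.18 CPM in monolayers. EDWM-EDC had 2048, 537 and 531 CPM in skin equivalents and at most 2.33 CPM in monolayers. Their log2 fold changes of 10.8 ± 0.92 and 9.91 ± 1.0 (edgeR adjusted p = 0.000218 and 0.000393) were 9.72 and 8.92 without skin equivalent 1, and that of EDWM-EDC was 10.58 without monolayer 1. LOR2-EDC had 873, 88.7 and 158 CPM in skin equivalents and at most 0.0665 CPM in monolayers, under the floor of 3 counts. Its log2 fold change of 12.87 ± 1.38 (adjusted p = 0.000491) was 11.24 without skin equivalent 1.

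The tested EDC features that did not rise were CRNN-EDC, EDMPN1-EDC and EDDM-EDC. CRNN-EDC, named after cornulin, a protein of the upper epidermis, had 1.18, 0.732 and 0.426 CPM in monolayers and 0.174, 0.110 and 0.144 CPM in skin equivalents, near the floor of 3 counts. Its log2 fold change was -2.17 ± 0.58 (edgeR adjusted p = 0.0176), and it was no longer called when skin equivalent 2 (adjusted p = 0.0573) or 3 (0.0601) was left out. EDMPN1-EDC had 59.9, 13.3 and 6.16 CPM in monolayers and 32.2, 5.23 and 2.88 CPM in skin equivalents. The groups overlapped, and the log2 fold change of -0.73 ± 1.1 (adjusted p = 0.608) was 0.68 without monolayer 1 and -2.5 without skin equivalent 1. EDDM-EDC was low throughout, with 0.465, 0.566 and 0.328 CPM in monolayers and 0.834, 0.439 and 0.288 CPM in skin equivalents, and was not called (adjusted p = 0.491). EDPE-EDC, which rose, was as high in subconfluent keratinocytes, at 521 CPM, as in skin equivalents, at 525, 403 and 548 CPM, and had 25.5, 151 and 77.9 CPM in monolayers (log2 fold change 2.83 ± 0.58, or 3.52 without monolayer 2). SCFN-EDC, named after scaffoldin, had 0 counts in every skin equivalent and at most 0.366 CPM in a monolayer.

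Of the 15 CBPs with the ending -K, 14 rose, beside 25.9% of all tested features, and the median log2 fold change over the 15 was 8.33. Several of the 14, CBP59-K and CBP65-K among them, had under 10 counts in every monolayer, so the filter sets part of these numbers too. CBP63-K had 0.43, 1.13 and 0.262 CPM in monolayers and 7944, 7576 and 12572 CPM in skin equivalents, and moved from rank 12354 to rank 6. CBP62-K had 0.179, 0.832 and 0.229 CPM against 5217, 6478 and 5998 CPM. Their log2 fold changes were 14.17 ± 0.79 and 14.06 ± 0.76 (edgeR adjusted p = 6.34e-05 and 5.66e-05), or 14.94 and 15.03 without monolayer 2. CBP56-K was detected in every keratinocyte library, with 55.4, 32.2 and 27.1 CPM in monolayers, 139 CPM in subconfluent keratinocytes and 811, 2462 and 1994 CPM in skin equivalents. CBP37-K and CBP38-K were by far the highest in skin equivalent 2, with 0.799, 452 and 8.88 CPM and 0.903, 489 and 8.95 CPM in skin equivalents 1 to 3. The log2 fold change of CBP37-K, 11.3 ± 2.82 (adjusted p = 0.0139), was 6.29 without that library, 10.71 without monolayer 2, 11.89 without skin equivalent 1 and 12.19 without monolayer 1. That of CBP38-K, 11.43 ± 2.81 (0.013), was 6.36 without skin equivalent 2, 12.02 without skin equivalent 1 and 12.27 without monolayer 3. Both were still called without skin equivalent 2. Neither was called without monolayer 1 (adjusted p = 0.0512 and 0.0532) or with limma-voom (adjusted p = 0.189 and 0.199).

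All 14 features ending in -C and all 10 tested of 21 ending in -S rose, beside 25.9% of all tested features. With limma-voom CBP52-S (adjusted p = 0.0825), CBP54-S (0.0571) and CBP55-S (0.0886) were not called. With edgeR, CBP14-C lost its call without monolayer 2 (adjusted p = 0.0543) and CBP55-S with the wo mark as a term (0.0545). CBP48-S (0.0533) and CBP50L-S (0.0532) lost theirs among the libraries marked wo. Of these 24 features, 23 had under 10 counts in at least 1 monolayer, and most, CBP3-C and CBP52-S among them, had under 10 in every monolayer. Such features passed the filter through the skin equivalents and could only rise, so the filter largely sets this tally. All 24 were highest in skin equivalent 2. CBP53-S had 16.3, 1776 and 139.5 CPM in skin equivalents 1 to 3 and at most 0.1996 CPM in a monolayer. CBP11-C, the -C feature with the most counts, had 148, 468 and 106 CPM against at most 0.430 CPM. In both, the lowest skin equivalent was far above the highest monolayer. Together the -S and -C features held 0.0387%, 0.967% and 0.0867% of counts in skin equivalents 1 to 3. When skin equivalent 2 was left out, the fold change of CBP53-S went on the log2 scale from 12.56 ± 2.2 to 9.51, and that of CBP11-C from 10.67 ± 1.08 to 9.77 (12.31 without monolayer 1). Skin equivalent 2 was also the library with the highest summed level of fibroblast-typical features. The fibroblast library itself held 0 counts of the -S and -C features, and a link between these levels was not tested. Features ending in -F stayed low: 2 of 20 had enough counts and 0 were called, with CBP17-F at 18.5, 3.56 and 4.88 CPM in monolayers and 10.5, 11.9 and 15.6 CPM in skin equivalents (log2 fold change 0.72 ± 0.63, adjusted p = 0.375, but called without monolayer 1, adjusted p = 0.00419).

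A few names lie outside these families. EPPKL1, whose name follows epiplakin, a protein that binds keratin filaments, had 0.322, 0.732 and 0.590 CPM in monolayers and 454, 606 and 320 CPM in skin equivalents (log2 fold change 9.98 ± 0.47, edgeR adjusted p = 4.01e-05). IL36RN, in mammals a blocker of the interleukin-36 receptor, had 4.90, 0.333 and 1.34 CPM against 278, 360 and 125.5 CPM (log2 fold change 7.09 ± 1.05, or 8.43 without monolayer 1). IL1RN, in mammals a blocker of the interleukin-1 receptor, had 0.895, 0.432 and 0.295 CPM against 11.1, 8.71 and 5.68 CPM, and 9.53 CPM in the fibroblast library. WASF2-L had 1.25, 4.03 and 3.70 CPM against 7.26, 9.18 and 9.28 CPM (log2 fold change 1.8 ± 0.43, adjusted p = 0.0111). TMED lay just outside the threshold (log2 fold change 1.57 ± 0.56, adjusted p = 0.0508) and passed with DESeq2 (1.46, adjusted p = 0.037). In each of the first 4 features all skin equivalents lay above all monolayers, as in 25.3% of all tested features, whereas TMED overlapped.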

How the data were processed

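RNA was isolated with Trizol, poly(A)-selected, made into strand-preserving libraries and sequenced as paired reads of 75 bases, per the labels' protocols. The authors deposited whole-number counts per feature without normalisation. Per the submitters' processing notes the tools were STAR 2.6.1a, bcl2fastq 2.19.1.403, DESeq2 1.22.2 and RSEM, with no role stated. No build, annotation or strand setting for the counting is given in the sources used here. The 4 lines of no gene were left out of library sizes; they held unmapped, multimapping, unassigned and ambiguous fragments. Genes received 64.5% to 70.8% of the fragments of the compared libraries. Counting that leaves out multimapping fragments makes members of multigene families uncertain. Overlapping genes are uncertain through the ambiguous fragments left out, and antisense genes through the strand setting that is not given.

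The 6 libraries were fitted with edgeR 4.0.16 in R 4.3.3 (quasi-likelihood, robust, TMM scaling, default expression filter, no covariate), with Benjamini-Hochberg adjustment over all 13230 tested features at 0.05. Standard errors come from the fold and the test statistic. The script was tested on simulated data. Alternatives were total-count scaling, DESeq2 1.42.0, limma 3.58.1 (voom), 2 other filters, a replicate block, the wo mark as a term, the libraries marked wo alone, and each library left out. The floor of 3 counts accounts for counting error alone, because no molecular identifiers were read. Intervals given with ± are SD over 3 libraries, or standard errors for log2 fold changes.

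Members and lists were chosen with earlier results of these data known. Named features follow a rule: the 10 with the most counts in each group, the 5 highest on and off features, the 10 largest gains and losses in CPM, the 6 largest rises and falls at a mean log2 CPM of at least 5 without overlap, up to 3 per name family, and names of no family; others were chosen after their values were seen. Of 12 lists of gene symbols, 9 matched no deposited name and were not analysed here, and the other 3 matched 10 keratins, Krt15, CRNN-EDC and SCFN-EDC.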

Additional observations from a re-analysis of the deposited data

Results flagged for a closer look

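Of the 4 shares of fragments given to no gene, which the comparisons do not use, 3 differed between the groups. Multimapping fragments made up 7.06%, 8.66% and 8.37% of all fragments in skin equivalents 1 to 3 (mean 8.03%) and 4.55%, 4.59% and 4.45% in monolayers 1 to 3. Unmapped fragments made up 7.15%, 5.61% and 5.58% (mean 6.11%) against 4.81%, 3.98% and 3.77%. Ambiguous fragments made up 0.657%, 0.815% and 0.794% (mean 0.755%) against 0.485%, 0.571% and 0.559%. For all 3 shares the lowest skin equivalent exceeded the highest monolayer (two-sided exact permutation p = 0.1 for each, the smallest that 3 against 3 libraries allow). The 143 named features, nearly all of the keratin, EDC and CBP families, held 12.7% to 16.3% of counts in the same skin equivalents, and the part of multimapping fragments in their levels was not tested.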

How the results depend on the processing

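Counts of called features stayed within 1.5 times of the reported ones under all alternatives run. Over single libraries left out, 2517 to 3301 features were higher and 2541 to 3610 lower, of which 2437 to 3223 and 2531 to 3599 unnamed, and 77 to 81 and 10 to 11 named. No pairing by replicate number was visible (correlations of deviations of -0.0762, -0.155 and 0.158 for the same number). With 3 libraries per group this cannot exclude a pairing. With the replicate block 3097 features were higher and 2894 lower. Without named features the difference between groups was 0.809 percentage points in place of 7.48 for the top 10, 1.66 in place of 9.50 for the top 100 and -48 in place of -220.7 features for 50% of counts, and the mean distance was 32.2%. Over single libraries left out these 4 ran from 6.49 to 8.55, 8.93 to 10.4, -257 to -201 and 36.1% to 38.1%, and the difference in features at 1 CPM or more from -399 to -264. On features numbered 39 and off features 87 with up to 3 counts allowed, and off features 4 at a minimum of 5 CPM. Over single libraries left out they numbered 13 to 18 and 18 to 26. Skin equivalents held 0.842% of the fibroblast level of 5 features seen at 100 CPM or more in fibroblasts and under 1 CPM in the keratinocyte monolayers (0.486% to 1.10% without single skin equivalents), 2.47% with a minimum of 20 CPM, and 4.25% by the rule against the subconfluent library, which like the distances without named features was chosen after seeing the data. A limit of 0.2 CPM left no feature. Of 104 single features followed, 22 changed call or sign under at least 1 of 14 alternatives, Krt14L2 (0.21) in sign at -0.06 with total-count scaling and over single libraries left out from -0.08 to 0.4 (-0.0 without skin equivalent 2), EDMPN1-EDC (-0.73) from -2.5 to 0.68, and EDDM-EDC (0.47) from -0.06 to 0.78 and at -0.11 among the libraries marked wo; the causes were not tested. EDMPN1-EDC (adjusted p = 0.0216) and TMED (0.0269) were called with the replicate block, and CBP55-S (0.0683) and Krt12 (0.136) were not. Depth limits features near 0.1 CPM, where 3 counts stand.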
